A study of Mus musculus with 16 samples.

Results

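The genes described here are 9, grouped around the glucose transporter family, the first phosphorylation of sugar and the regulator of glucokinase. They are the transporters Slc2a2, Slc2a1, Slc2a8 and Slc2a9, the glucokinase regulator Gckr, the hexokinases Hk1, Hk2 and Hk3, and the fructose kinase Khk. They were chosen by symbol, and all 9 were found once each among the 30463 genes of the authors' deposited table. Whole liver of wild-type C57BL/6N mice aged 14 weeks was profiled by RNA sequencing in 16 samples, 4 in each of 4 groups. Mice were injected with vehicle or with DEN, diethylnitrosamine, a liver carcinogen, at 2 weeks of age, and from 6 weeks they either stayed on control diet or received a diet labelled 60% high fat. The groups are vehicle with control diet, DEN with control diet, vehicle with high fat diet and DEN with high fat diet, and all mice share strain and genotype.

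The series' title asks whether fat induces glucose metabolism in cells that are not transformed. The deposited table gives 1 comparison, with, for each gene, its mean normalized count, the log2 fold change with a standard error (SE), and a p-value. It does not name the sides, so a gene with a positive log2 fold change is called higher on the positive side, whichever group that is. Values per library could not be tied to the labelled samples, so neither a level per group nor a spread between animals is given, and the error of each value is the authors' SE.

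As background, hepatocytes take up glucose by facilitated transport, which runs in both directions across the cell membrane. Once inside, glucose is trapped by phosphorylation. In most tissues hexokinases of high affinity do this, while hepatocytes rely on glucokinase, whose activity the product of Gckr restrains by binding it in the nucleus, and fructose is phosphorylated on a route of its own by ketohexokinase. In whole tissue, fewer cells of a type and less RNA per cell cannot be told apart.

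None of the 9 genes passed the test in the authors' deposited table. At an adjusted p below 0.05, 0 of 9 were called, beside 1070 of 16288 tested genes (6.57%), of which 598 (3.67%) were positive and 472 (2.90%) negative. At an unadjusted p below 0.05 there was 1 of 9, Hk2, beside 3102 of the tested genes (19.0%). The log2 fold changes of the 9 genes ran from -0.36 for Hk3 to 0.93 for Hk2, with 5 positive and 4 negative in sign and a median of 0.11, beside a median of -0.0044 over all tested genes. Their median absolute log2 fold change was 0.13, beside 0.18 over all tested genes and 0.56 over the called ones.

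**Figure D1:**
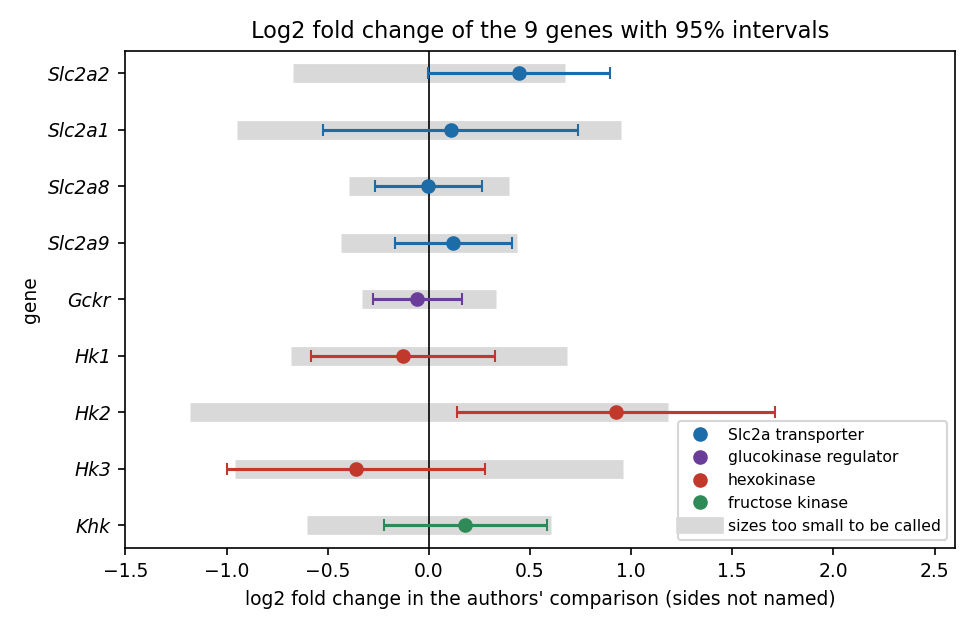
Log2 fold change of each gene (x axis) in the authors' comparison, whose sides are not named, with 95% normal intervals from the authors' SE as bars, coloured by role. Grey bands mark the sizes too small to be called at each gene's SE, and all 9 points lie inside their bands, where Hk2 at 0.93 has an edge at 1.18 and Slc2a2 at 0.45 an edge at 0.67.

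Promoter sequences from RefSeq on GRCm38.p6 are shown for the 4 genes around which the results turn: Slc2a2, Gckr and Khk, which had the highest levels of the 9, and Hk2, which had the widest difference. Each is the 220 bases before the start annotated in RefSeq, 5′ to 3′ on the gene's strand. For Gckr and Khk that start lies inside the gene positions given below, which come from GENCODE M21. Part of each of their windows therefore lies inside the gene as placed there. Capitals mark matches, on either strand, to the E-box CACGTG, the GC box GGGCGG and the nuclear receptor motif AGGTCA, and the window of Gckr holds none of them. The windows are chr3:28697683-28697902 on the + strand for Slc2a2, chr5:31297343-31297562 on the + strand for Gckr, chr5:30921339-30921558 on the + strand for Khk, and chr6:82774455-82774674 on the - strand for Hk2.
Slc2a2: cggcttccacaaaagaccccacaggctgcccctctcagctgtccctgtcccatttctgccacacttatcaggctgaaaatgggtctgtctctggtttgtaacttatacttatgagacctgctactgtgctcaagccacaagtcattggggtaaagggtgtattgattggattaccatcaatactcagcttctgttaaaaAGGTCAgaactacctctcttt
Gckr: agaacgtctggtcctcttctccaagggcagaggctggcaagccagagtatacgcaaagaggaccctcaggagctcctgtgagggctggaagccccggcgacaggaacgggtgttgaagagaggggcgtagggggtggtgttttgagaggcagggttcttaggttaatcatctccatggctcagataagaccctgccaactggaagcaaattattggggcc
Khk: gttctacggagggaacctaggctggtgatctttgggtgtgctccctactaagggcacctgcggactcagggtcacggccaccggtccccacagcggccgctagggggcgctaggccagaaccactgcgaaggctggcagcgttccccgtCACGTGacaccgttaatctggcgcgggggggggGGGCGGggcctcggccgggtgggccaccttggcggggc
Hk2: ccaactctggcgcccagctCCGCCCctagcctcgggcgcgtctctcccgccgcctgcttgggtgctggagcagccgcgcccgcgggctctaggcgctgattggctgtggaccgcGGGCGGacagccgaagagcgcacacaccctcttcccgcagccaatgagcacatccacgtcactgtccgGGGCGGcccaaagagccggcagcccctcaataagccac

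Motifs were counted in windows from 250 bases before to 50 after the RefSeq start. Hk1 had an additional window, so the 9 genes had 10. The window of Slc2a9 lies inside the gene as placed by GENCODE M21, as does the only Hk1 window with a motif match. Khk held the only E-box among the 9 genes, beginning 71 bases before the start, a motif found in 7.15% of 32851 promoter windows of the same length. The arrangement of a pair of E-boxes 5 bases apart, known from carbohydrate response elements, was in 0 of the windows of the 9 genes and in 0 of all windows. The search asked for exact copies of CACGTG and matched nowhere, so it cannot tell whether the 9 genes hold such elements. Hk2 held 3 GC boxes, Slc2a1 held 2 and Khk held 1, a motif in 35.7% of all windows. The hypoxia response core ACGTG, which overlaps the E-box, was in windows of 5 genes (Slc2a1, Hk1, Hk2, Hk3 and Khk) and in 19.6% of all windows. The nuclear receptor motif AGGTCA was in Slc2a2 and Slc2a9 and in 16.3% of all windows. The TATA box letters TATAAA were in Slc2a1 and in 13.6% of all windows. In Slc2a1 they begin at base 29 after the start, not before it. The GC content of the window was 67.3% for Hk2 and 65.7% for Khk, higher than in 86.2% and 83.0% of all windows, while Slc2a2 had 48%. These are matches of letters, not sites shown to be bound.

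Slc2a2 encodes the main hepatocyte glucose transporter, which also carries fructose. It was the most abundant transporter of the 4, with 849.0 mean normalized counts per kb of exon, from a mean normalized count of 4886 in the authors' deposited table. That is 10.7 times the level of Slc2a1 per kb and 76.4% of the summed level of the 4 transporters per kb. In the authors' deposited table Slc2a2 was at a log2 fold change of 0.45 ± 0.23 (SE, adjusted p = 0.265), a 1.36-fold difference toward the positive side with a 95% interval from 0.999 to 1.86. The interval reaches from no difference to one past 1.5-fold. The SE of Slc2a2 exceeded that of 84.8% of the 500 tested genes nearest to it in mean count.

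Slc2a1 encodes a glucose transporter found in many tissues, and its mean normalized count was 278.6, or 79.5 per kb. The log2 fold change of 0.11 ± 0.32 (SE, adjusted p = 0.907) per the authors' deposited table is a 1.08-fold difference with an interval from 0.695 to 1.67. The SE of Slc2a1 exceeded that of 97.8% of the 500 tested genes nearest to it in mean count, whose median SE was 0.12. Listed erythroid markers were at mean normalized counts of 9.22 to 2108, and 0 of 7 were called. Of these markers, 2 were positive and 5 negative in sign, with a median log2 fold change of -0.23. The part of erythroid cells in the values of the 9 genes was not tested.

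Slc2a8 encodes a sugar transporter of intracellular membranes. Its mean normalized count was 223.7, or 69.7 per kb, and the authors' deposited table puts it at -0.0034 ± 0.14 on the log2 scale (SE, adjusted p = 0.994). Of the 9 genes it was nearest to 0, with an interval of 0.830-fold to 1.20-fold. Slc2a9 encodes a carrier that transports mainly urate despite its place in the glucose transporter family. It had 571.7 mean normalized counts, or 112.5 per kb, and a log2 fold change of 0.12 ± 0.15 (SE, adjusted p = 0.728) per the authors' deposited table, with an interval of 0.889-fold to 1.33-fold. For neither gene did the interval reach a 1.5-fold difference in either direction.

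Gckr had a mean normalized count of 2180, or 502.8 per kb, which is 9.15 times the summed level of Hk1, Hk2 and Hk3 per kb. Its log2 fold change of -0.058 ± 0.11 (SE, adjusted p = 0.847) per the authors' deposited table was the most precise of the 9. The interval ran from 0.824-fold to 1.12-fold, and at this SE a difference of 1.26-fold would have been called. Gckr (ENSMUSG00000059434) lies at chr5:31297443-31327314 on the + strand in GRCm38.

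Khk (ENSMUSG00000029162, chr5:30921431-30931248 on the + strand in GRCm38) encodes ketohexokinase, the entry enzyme of fructose metabolism. It was the most abundant of the 9 genes, with a mean normalized count of 7623, or 4242 per kb, 8.44 times Gckr and 212.7 times Hk2 per kb. Only 1.29% of tested genes had a higher level per kb. The authors' deposited table gives Khk a log2 fold change of 0.18 ± 0.20 (SE, adjusted p = 0.699), or 1.13-fold with an interval of 0.858 to 1.497. The table counts whole genes, so the liver isoform of Khk and the one found in other tissues are not separated.

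**Figure D2:**
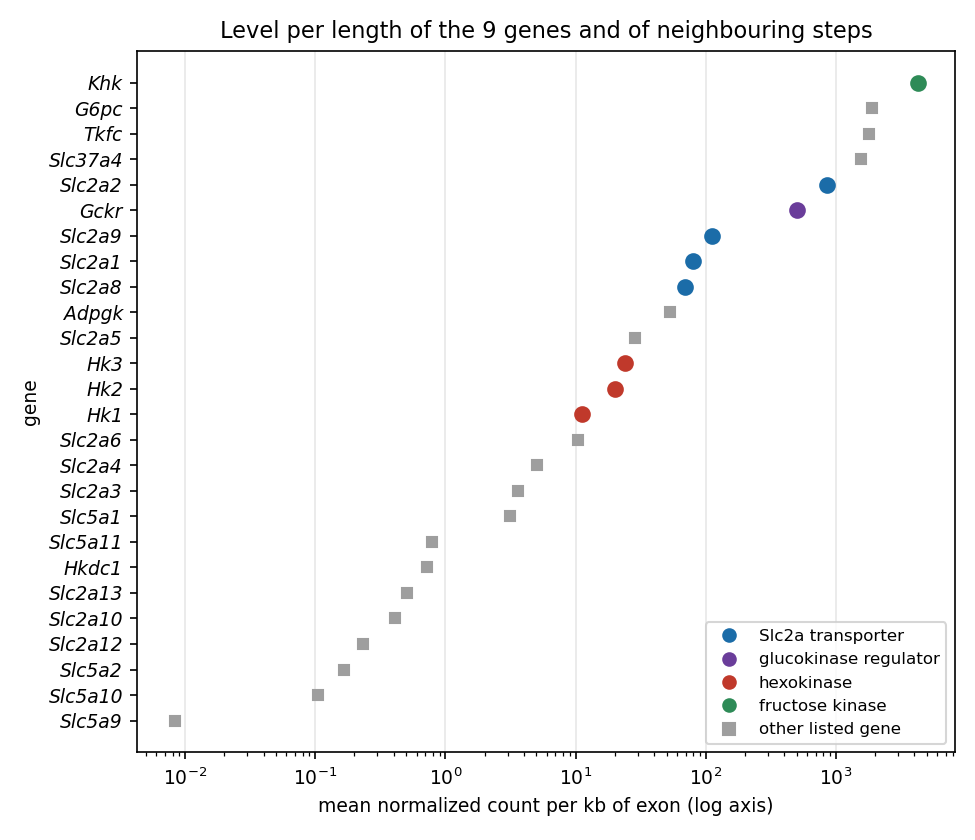
Mean normalized count per kb of exon (x axis, log scale) for the 9 genes, as coloured circles, and for listed genes of neighbouring steps, as grey squares. Khk at 4242, Slc2a2 at 849.0 and Gckr at 502.8 stand above the other transporters at 69.7 to 112.5 and the hexokinases at 11.2 to 23.9, and no spread between animals is shown because the values per library were not used.

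The hexokinases were the least abundant of the 9 genes, at 11.2 per kb for Hk1, 19.9 for Hk2 and 23.9 for Hk3. Hk2, the insulin-responsive hexokinase of muscle and fat that is induced in many tumours, had a mean normalized count of 119.1. In the authors' deposited table it was at a log2 fold change of 0.93 ± 0.40 (SE, p = 0.0211, adjusted p = 0.160), or 1.90-fold with an interval of 1.10 to 3.28. The unadjusted interval lies above 1, yet 13.1% of all tested genes had a smaller p. At its SE a difference of 2.27-fold would have been needed for a call. That SE was wider than in 98.4% of the 500 tested genes nearest in mean count, whose median was 0.16. Hk2 (ENSMUSG00000000628) lies at chr6:82725025-82774454 on the - strand in GRCm38.

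Hk1, the hexokinase of brain and red cells that binds mitochondria, had a mean normalized count of 95.2 and a log2 fold change of -0.13 ± 0.23 (SE, adjusted p = 0.832) per the authors' deposited table. Hk3, which is found mainly in white blood cells, had a mean normalized count of 87.9 and was at -0.36 ± 0.33 (SE, adjusted p = 0.605), the lowest value of the 9 in the authors' deposited table. Its interval, from 0.4998-fold to 1.21-fold, still holds a change of nearly 2-fold toward the negative side. Of the 3 hexokinases, Hk2 was positive in sign, and Hk1 and Hk3 were negative. Whether they differed from each other was not tested, because that needs values per library.

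Markers of white blood cells and liver macrophages are given beside Hk3, which was negative in sign. Of 12 neutrophil markers, 10 were negative in sign with a median log2 fold change of -1.09 and 0 called, and their mean normalized counts ran from 4.32 for Ly6g to 41980 for Lcn2, which hepatocytes also express. All 12 Kupffer cell markers were negative in sign, with a median of -0.50 and mean normalized counts of 213.1 to 2130. Of these, 2 were called, Timd4 with a log2 fold change of -0.76 ± 0.26 and Fcna with -0.64 ± 0.19 (SE, authors' deposited table). Of 11 monocyte and recruited macrophage markers, 7 were negative, with a median of -0.28 and 0 called. None of these markers was at 0, and their part in the value of Hk3 was not tested. Muscle markers, of interest because muscle carries Hk2, were at mean normalized counts of at most 0.434 for the 3 in the table. Of the 6 adipocyte genes in the table, 4 had mean normalized counts under 1, among them Adipoq at 0.387 and Plin1 at 0.439, while Cfd was at 395.2 and Adipor2, which hepatocytes also express, at 10897, and the part of fat cells in the value of Hk2 was not tested. The 9 hepatocyte markers in the table had mean normalized counts of at least 12999, with 8 negative and 1 positive in sign and a median log2 fold change of -0.23. Of these, 1 was called, Ahsg, at -0.64 ± 0.14 (log2, SE, authors' deposited table).

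Of the remaining marker lists, 1 of 10 sinusoidal endothelial genes was called (Bmp2, -0.72 ± 0.23), with all 10 negative in sign, and 1 of 9 tested cholangiocyte genes (Krt8, 0.91 ± 0.16), with 8 positive in sign (log2, SE, authors' deposited table). Krt8 had a mean normalized count of 2218, while Krt19 at 13.2 and Krt7 at 10.3 were not called. Which cells the value of Krt8 comes from was not tested. Cfd, at 7.93 ± 0.69, was called among the 2 adipocyte genes that were tested (log2, SE, authors' deposited table). Stellate cell, T and NK cell and B cell markers had 0 of 10, 0 of 10 and 0 of 6 called, with medians of -0.037, -0.59 and -0.23. The part of these cells in the values of the 9 genes was not tested.

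**Figure D3:**
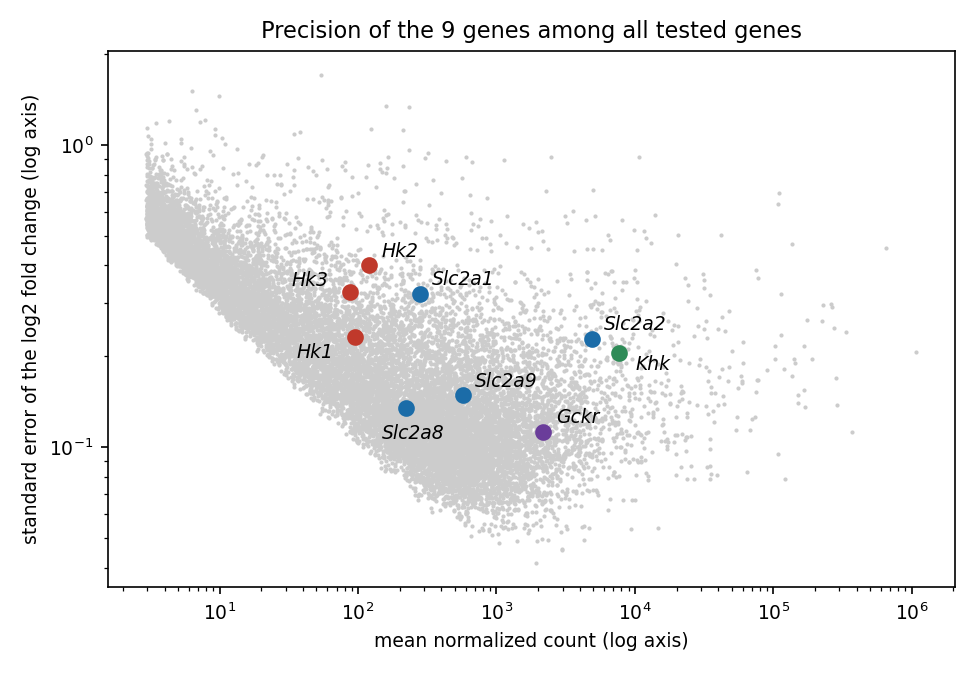
SE of the log2 fold change (y axis, log scale) against mean normalized count (x axis, log scale) for all 16288 tested genes in grey and the 9 genes in colour by role. Hk2 at 0.40, Slc2a1 at 0.32 and Hk3 at 0.33 lie furthest above most genes of their abundance. Slc2a2 at 0.23, Slc2a9 at 0.15, Khk at 0.20 and Hk1 at 0.23 also lie above most. Gckr at 0.11 and Slc2a8 at 0.14 lie near the middle.

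The 9 genes thus differed in how tightly the data bound them. For 5 genes (Slc2a8, Slc2a9, Gckr, Khk and Hk1) the 95% interval lay inside a 1.5-fold difference in both directions. For the other 4, Slc2a1, Slc2a2, Hk2 and Hk3, it reached beyond. Khk, with an upper bound of 1.497-fold, and Hk1, with a lower bound of 0.668-fold, lay at the edge of that limit. The SE of Hk1 was 0.23, as was that of Slc2a2. Read in the same direction, 0 of the 50-base stretches in any transcript of the 9 genes occurred in a transcript of another gene in GENCODE M21. Reverse complements were not searched, so this does not cover the overlaps on the opposite strand given below. Slc2a2 (ENSMUSG00000027690) lies at chr3:28697903-28731359 on the + strand and Slc2a1 (ENSMUSG00000028645) at chr4:119108711-119137983 on the + strand in GRCm38. Exons overlapped another gene on the opposite strand for Hk1 (Hk1os, 157 bases), Slc2a1 (Gm12868, 105 bases) and Hk3 (Unc5a, 34 bases). The antisense genes Hk1os and Gm12868 had mean normalized counts of 0.358 and 0.173 in the authors' deposited table, and Unc5a had 28.1. Use of strand in counting is not stated in the labels or file headers.

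Around the 9 genes, 7 lists of neighbouring steps held 79 genes in the table, of which 73 were tested, 7 were called positive and 1 negative, 11.0% beside 6.57% of all tested genes. The lists were chosen with earlier results of these data known, so these shares do not measure an excess of calls around the 9 genes. Among the other transporters of the Slc2a family, 0 of 5 tested were called, with a median log2 fold change of -0.34. Slc2a3, a transporter of high affinity, was at -0.96 ± 0.44 (SE, adjusted p = 0.198), the insulin-regulated transporter gene Slc2a4 at 0.37 ± 0.67 (SE, adjusted p = 0.834) and the fructose transporter gene Slc2a5 at -0.34 ± 0.28 (SE, adjusted p = 0.557), all on the log2 scale of the authors' deposited table. Slc5a1, a sodium-coupled glucose transporter best known from intestine, was the only tested gene of its list and was higher on the positive side, at 0.99 ± 0.27 (log2, SE, adjusted p = 0.00818) and a mean normalized count of 12.8 in the authors' deposited table.

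Enzymes for the entry of other sugars included called genes. Of 14 tested sugar kinases and entry enzymes, 3 were called positive and 0 negative, with a median log2 fold change of 0.073. Among them, Pmm1, a phosphomannomutase, was at 0.80 ± 0.13 (adjusted p = 5.7e-07) and the galactokinase gene Galk1 at 0.73 ± 0.17 (adjusted p = 0.0013), each a log2 fold change with its SE from the authors' deposited table. Hkdc1, a further hexokinase gene, was at 0.75 ± 0.49 (log2, SE, adjusted p = 0.427) with a mean normalized count of 3.72, near the lowest that was tested, 2.95, in the authors' deposited table. Whether this list differs from the 9 genes was not tested.

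The fructose and polyol route, which holds steps before and after Khk, had 1 of 8 genes called and a median log2 fold change of 0.13. The called gene was Akr1a1, an aldehyde reductase, which the authors' deposited table puts at 0.35 ± 0.072 (log2, SE, adjusted p = 0.00012). Tkfc, a kinase that acts after Khk, was at 0.62 ± 0.26 (log2, SE, adjusted p = 0.131) per the authors' deposited table. For the release and branching of glucose 6-phosphate, 0 of 14 genes were called, with a median log2 fold change of -0.12. G6pc, which frees glucose for export, was at -0.90 ± 0.38 (log2, SE, adjusted p = 0.144), and Slc37a4, its partner transporter in the endoplasmic reticulum, at -0.17 ± 0.17 (log2, SE, adjusted p = 0.670), as the authors' deposited table gives them. Genes of hexokinase binding and control, such as the mitochondrial channels Vdac1 to Vdac3, had 0 of 11 called, with a median of 0.036.

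Of 20 genes of carbohydrate and liver transcription control, 2 were called positive and 1 negative, with a median log2 fold change of 6.3e-05. Srebf1, which drives lipid synthesis genes, was at 1.41 ± 0.23 (adjusted p = 5.3e-07), Tsc22d1 at 1.37 ± 0.23 (adjusted p = 5.1e-07) and the growth regulator Myc at -0.83 ± 0.21 (adjusted p = 0.0037), log2 fold changes with SE from the authors' deposited table. Mlxipl, the glucose-sensing factor of liver, was at 0.33 ± 0.18 (adjusted p = 0.305). Genes known to follow it were Pklr at 0.72 ± 0.29 (adjusted p = 0.128) and Txnip at 0.36 ± 0.38 (adjusted p = 0.677), log2 fold changes with SE from the authors' deposited table. The factors Hnf4a, which maintains hepatocyte genes, and Foxo1, which acts on fasting genes, were at -0.28 ± 0.11 (adjusted p = 0.0910) and -0.37 ± 0.18 (adjusted p = 0.231), again as log2 fold changes with SE in the authors' deposited table. These 5 factors and followers are the genes of the list named here that were not called, so their 0 calls follow from the grouping.

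**Figure D4:**
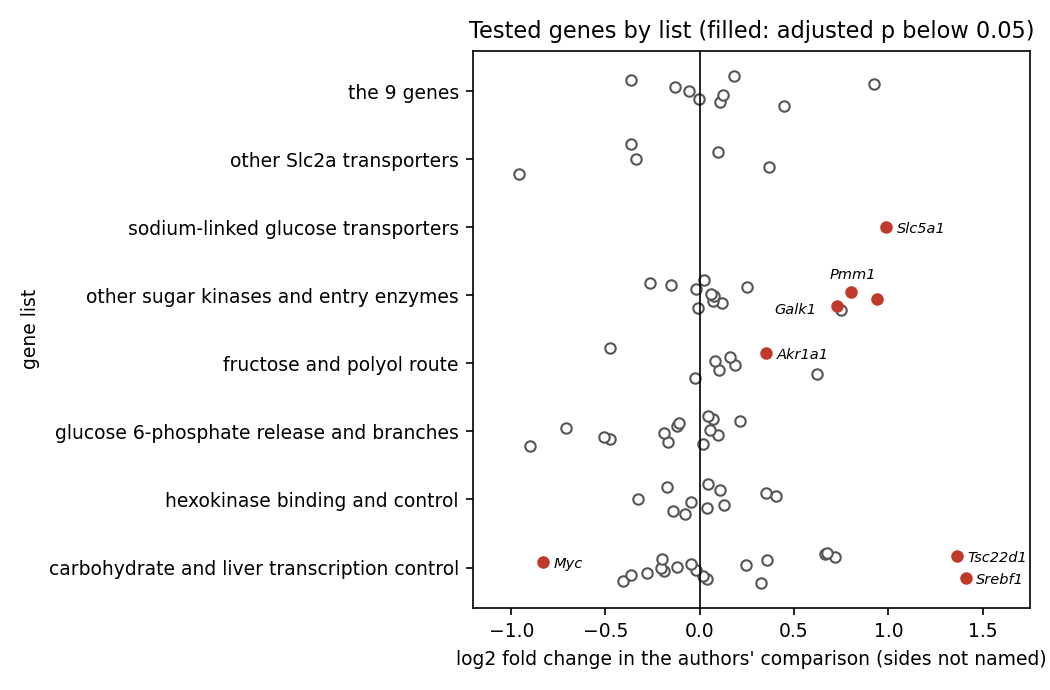
Log2 fold change (x axis) of each tested gene in the authors' comparison, by gene list (rows), with filled points for an adjusted p below 0.05. The 9 genes carry no filled point, and the 8 filled points lie among sodium-linked transporters (1), other sugar kinases and entry enzymes (3), the fructose and polyol route (1) and transcription control (3).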

How the data were processed

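Liver RNA of 16 mice was sequenced, and per the labels' protocols the library kit keeps strand. FastQC, Trimmomatic, HISAT2, HTSeq 0.11.1 and GRCm38 are named in the submitters' processing notes. Per the file headers, the authors deposited a mean normalized count (signal), a log2 fold change with its SE (log2), a test statistic (score), a p-value and an adjusted p-value for each gene. Neither the model nor the sides compared are stated there or in the labels. The table's 16 columns of values per library carry codes that match no label, so they were not used, the planned edgeR test of diet and DEN was not run, and depth per sample is not given.

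Genes with an adjusted p-value below 0.05 were called. Intervals are 95% normal intervals. The size needed for a call is the SE times the statistic at the largest called p (0.00328). Levels were divided by the union of exon lengths in GENCODE M21. The SE of each gene was set beside the 500 tested genes nearest in mean count. Motifs were searched on both strands of RefSeq promoters, which matched all 9 genes, and protein identity was not analysed here. Recomputed adjusted p-values matched the deposited ones. The adjustments and other call settings were also run on simulated statistics drawn with the authors' SEs. The intervals, levels, SE ranks, motifs and overlaps were not tested in that way. The members and lists were chosen with earlier results of these data known. Named genes are the 9, a fixed panel, and up to 4 called genes per list by smallest p (markers: up to 3), some of which are not reported here. Of 82 listed pathway genes, 79 were found in the table, 1 of them under its current symbol (Fcsk). Alternatives were 8 other adjustments, count minimums, thresholds and scalings. Python 3.11.15, numpy 2.4.6, scipy 1.17.1 and pandas 2.3.3 were used.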

Additional observations from a re-analysis of the deposited data

How the results depend on the processing

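Under each of the 8 other settings (other adjustments, count minimums of 10 and 100, thresholds of 0.10 and 0.01, scaling and centring), 0 of the 9 genes were called, where Hk1 and Hk3 fell below the count minimum of 100 and had no value there. The lowest adjusted p over these settings was 0.130, for Hk2. Bonferroni adjustment, the threshold of 0.01 and the scaling can only remove calls, so with 0 called at first their outcome was fixed. The threshold of 0.10 could not add a call either, since Hk2 had the smallest main adjusted p of the 9 genes, 0.160. The 0 under those settings is therefore no test of the result. Slc2a8 changed sign when log2 fold changes were centred on their median, from -0.0034 to 0.0010, which the centring itself produces. Of the listed pathway genes, 8 were called, and this became 4 with Bonferroni adjustment and 3 with the statistic divided by its median absolute deviation of 1.44, 2 settings that also took all called genes from 1070 to 185 and to 142. A threshold of 0.01 left 491 of all genes. With the forward strand only, the nuclear receptor motif was in 1 gene instead of 2, and the hypoxia response core in 3 instead of 5. No paired analysis was possible because the values per library could not be matched to the labelled replicates, and for the same reason no replicate could be left out. Precision is limited most for Hk2, Hk3 and Slc2a1, at SEs of 0.40, 0.33 and 0.32.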
